A study of Mus musculus with 4 samples.

Results

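The genes described here are 10 members of the tetraspanin family, measured in DN4 thymocytes with and without an induced deletion of Ikaros. They were chosen by symbol, as 3 leukocyte tetraspanins (Cd37, Cd53 and Tspan32), 4 widely expressed ones (Cd9, Cd63, Cd81 and Cd151) and 3 others (Cd82, Tspan3 and Tspan13). All 10 were found among the 19938 genes that had a probe set with exactly 1 gene symbol, and each was read by 1 such probe set. DN4 cells are the last of the immature thymocyte stages that lack both CD4 and CD8. They were sorted from 4 mice whose Ikaros gene, Ikzf1, carries floxed alleles (Ikf/f), and each mouse gave 1 array. Mice 129 and 135 (Cre+) also carried Rosa26-CreERT2, a Cre recombinase that tamoxifen activates and that the Rosa26 locus drives in most cell types, so the construct does not limit deletion to thymocytes. Mice 131 and 137 (Cre-) carried Ikf/f without the recombinase. Tamoxifen was injected into all 4 mice, 50 mg/kg each day over 4 days, and cells were taken 24 h later, so the groups differ in the recombinase and not in the drug. All 4 mice carried floxed alleles, so effects of the active recombinase itself and of Ikaros loss cannot be told apart. The labels name neither strain background nor age.

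Tetraspanins are small proteins that cross the membrane 4 times and gather other surface proteins, such as integrins, immunoglobulin-fold receptors and membrane proteases, into patches of membrane. Some, such as CD37, CD53 and TSSC6 (the product of Tspan32), are made mainly by blood cells, while CD9, CD63, CD81 and CD151 are made by many tissues. In T cells CD81 is known as a costimulatory molecule. Ikaros is a zinc-finger transcription factor of lymphocytes that binds DNA sites with the core letters GGGAA. The comparison asks which of these genes differ in DN4 cells after Ikaros is deleted.

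The promoters of Cd81 and Cd53 are shown because these genes had the largest differences of the 10, in opposite directions. The windows run from 250 bases before to 50 bases after the RefSeq start of each gene, on build GRCm38.p6. The Cd81 window is chr7:143052500-143052799 on the + strand and the Cd53 window is chr3:106790100-106790399 on the - strand. Both are written 5′ to 3′ along the gene, with GGGAA, searched on both strands, in capitals.
Cd81: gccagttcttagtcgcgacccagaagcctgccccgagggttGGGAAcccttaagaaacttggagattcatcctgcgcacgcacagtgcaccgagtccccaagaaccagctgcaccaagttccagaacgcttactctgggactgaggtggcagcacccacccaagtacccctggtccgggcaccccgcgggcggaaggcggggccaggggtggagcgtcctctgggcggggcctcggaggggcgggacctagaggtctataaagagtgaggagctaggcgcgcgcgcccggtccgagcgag
Cd53: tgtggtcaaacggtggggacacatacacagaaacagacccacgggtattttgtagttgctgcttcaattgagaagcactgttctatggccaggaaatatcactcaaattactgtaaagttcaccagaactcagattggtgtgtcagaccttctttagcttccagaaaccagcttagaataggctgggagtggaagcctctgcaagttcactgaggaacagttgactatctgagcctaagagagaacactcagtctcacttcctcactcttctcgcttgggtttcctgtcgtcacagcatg
The Cd81 window held 1 match, which began 209 bases before the start of the gene and was preceded by T, and the Cd53 window held 0. GGGAA was present on either strand in 62.7% of all 32851 promoter windows of this length in the RefSeq table, and the longer TGGGAA, which contains it, in 25.6%. The 10 genes had 14 such windows between them, of which 12 held GGGAA and 6 held TGGGAA, and Cd53 was the 1 gene without GGGAA in any window. Such matches describe letters only, and binding was not measured here.

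The arrays were alike in scale, with medians between 6.85 and 6.88 on the log2 scale, and 2 arrays per group limit the precision of every value. Ikzf1 itself measured 12.06 and 11.99 in Cre+ cells (mice 129 and 135, the order used throughout) and 12.07 and 12.11 in Cre- cells (mice 131 and 137), a difference of -0.07 (SE 0.04). Where its probes lie relative to the floxed part was not analysed here, so this value does not check the labels. Per the series' design text, Ikaros protein was lost in the sorted Cre+ cells on western blots. Of 13 markers of T lineage cells 11 were measured, and their mean level was 11.83 and 11.71 with Cre and 11.60 and 11.61 without it. In the limited test described below, 4 of the 11 were called higher and 0 lower, against 0.936% and 0.285% of its probe sets. These were Cd3d, Cd3g, Cd3e and Rag1, with differences of 0.66, 0.37, 0.25 and 0.38. Of the 11, 8 had higher and 3 lower means in Cre+ mice. Ptcra differed by 0.33, and Thy1, Cd28 and Bcl11b by 0.01, 0.04 and 0.05. Ptprc, Gata3 and Cd27 differed by -0.16, -0.07 and -0.05. The list mean on each array lay between 6.48 and 6.83 for dendritic cell markers, 6.27 and 6.33 for natural killer markers, 7.15 and 7.28 for thymic epithelial and stromal markers and 5.78 and 5.91 for erythroid and platelet markers, and log2 RMA values give no zero to read them against. These means join unlike markers. Of 5 natural killer markers 3 had means under 5.41, the 25th percentile of all probe sets. Gzma, another of them, measured 12.31 and 12.25 with Cre and 12.48 and 12.46 without it. Epcam, of the epithelial list, measured 7.68 and 8.08 against 8.38 and 8.35. Neither was called in the limited test (limma adjusted p = 0.0506 and 0.193). Their lists held 2 higher and 3 lower, and 3 higher and 6 lower markers. By Xist and Y-linked transcripts, 129 and 131 were females and 135 and 137 males, so each group held 1 of each sex.

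With limma's adjustment over all 35556 probe sets, 0 of the 10 tetraspanin genes had an adjusted p under 0.05, as was the case for 0% of all probe sets. At an unadjusted p under 0.05, 2 of the 10 were higher in Cre+ mice (Cd81 and Cd9) and 1 was lower (Cd53), while 4.12% of the 19938 genes were higher and 2.74% lower at that limit, or 6.86% in either direction. In a test limited to the 21789 probe sets that carry 1 gene symbol and no more, Cd81 was called higher and Cd53 lower, and 1.22% of those probe sets were called, 0.936% higher and 0.285% lower. This limited test is an alternative to the main one, and it is named wherever a call rests on it. It fits limma anew on those probe sets, so the pooled spread and the unadjusted p change as well as the adjustment. The unadjusted limma p of Cd81 was 0.000287 in the main fit and 6.94e-06 in the limited one. That of Cd53 was 0.00233 and 0.000141. The SEs and intervals given are those of the main fit. The Cre+ and Cre- values did not overlap for 6 of the 10 genes, 3 higher and 3 lower, against 36.4% of all genes (16.1% higher and 20.3% lower). With 2 mice against 2, an exact two-sided permutation test cannot give a p below 0.333, so the p-values depend on the spread that limma pools over probe sets. The median difference of the 10 genes was -0.04, with 3 higher and 7 lower, against a median of -0.01 for all genes. The median size of the difference, whatever its sign, was 0.15 for the 10, which were chosen with earlier results known, and 0.06 for all genes. Over all 30 measured tetraspanin genes, described below, it was 0.08.

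**Figure D1:**
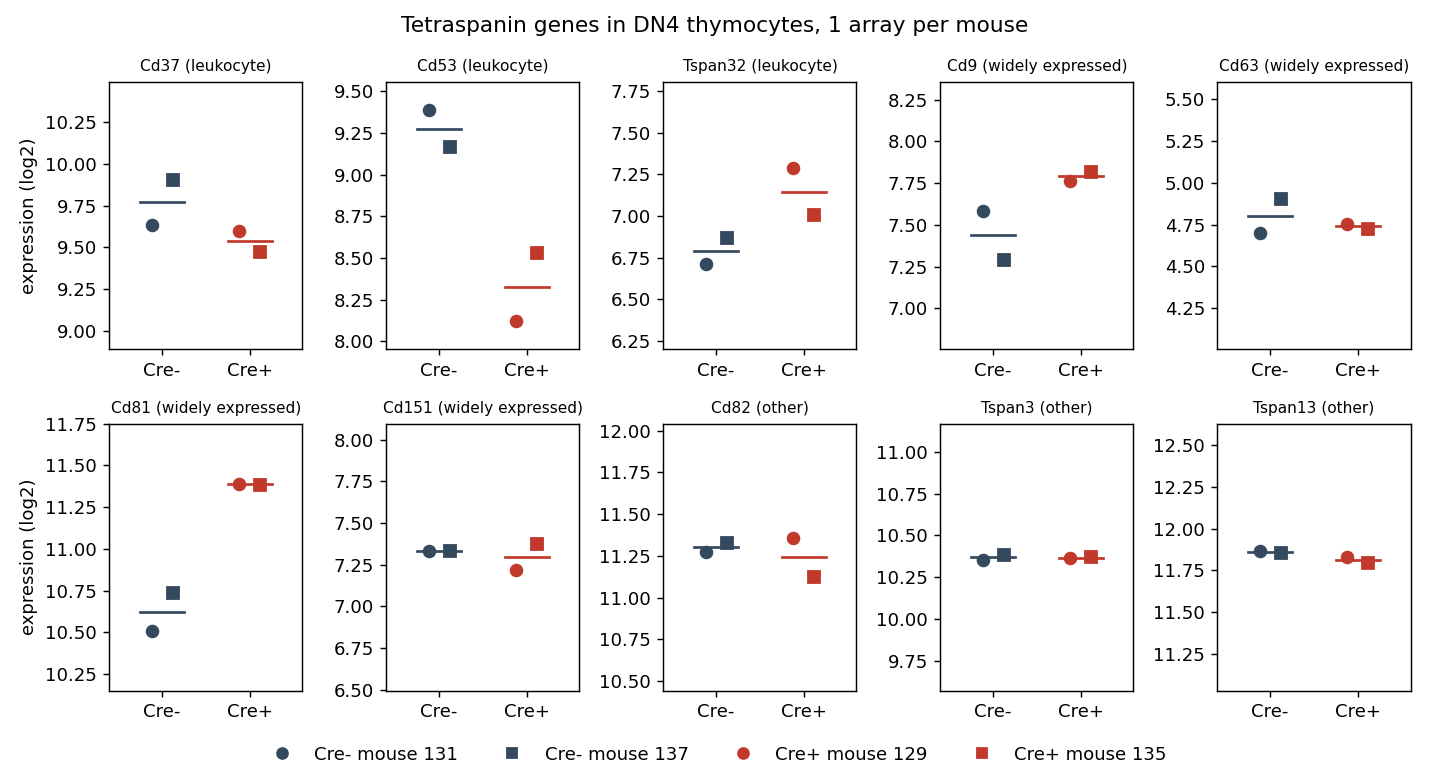
Log2 expression of the 10 tetraspanin genes in each of the 4 mice, with Cre- mice in dark grey, Cre+ mice in red and a bar at each group mean. Every panel spans the same number of log2 units around its own centre, so distances compare between panels and heights do not. Cd81 and Cd53 show the widest gaps between the groups, while the 4 mice lie almost together for Tspan3 and Tspan13.

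The leukocyte tetraspanins differed in direction. Cd53, which encodes a pan-leukocyte tetraspanin of thymocytes, T, B and myeloid cells, measured 8.12 and 8.53 in Cre+ and 9.38 and 9.17 in Cre- cells. Both Cre+ mice lay below both Cre- mice, with 0.64 between the nearest values. On the log2 scale the difference was -0.95 (SE 0.17, 95% interval -1.38 to -0.52, not adjusted for the number of genes), or 1.93-fold lower. Only 8 of the 19938 genes had a difference further below 0, so Cd53 was in place 9. In limma Cd53 had an adjusted p of 0.327 in the main test and 0.0215 in the limited test, and over the alternatives this ranged from 0.0215 to 0.937. The call in the limited test was lost without limma's intensity trend (adjusted p = 0.0846). The size of the difference depended on the mice paired, being -1.27 between the females 129 and 131 and -0.64 between the males 135 and 137.

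Cd37 encodes a tetraspanin of mature B cells that T cells carry at lower levels. It measured 9.60 and 9.47 in Cre+ and 9.64 and 9.91 in Cre- cells. The groups did not overlap, but the nearest values were 0.04 apart, less than the 0.27 between the Cre- mice. The difference was -0.23 (SE 0.11, 95% interval -0.53 to 0.06), with a limma adjusted p of 0.863 over all probe sets and 0.539 in the limited test. Leaving out Cre- mouse 137 brought it to -0.10, and leaving out mouse 131 to -0.37. Mouse 137 also had the highest mean of the B cell markers, 6.84 against 6.61 in mouse 131 and 6.47 and 6.51 with Cre. Of 7 such markers 6 were measured, and 5 of them had lower means in Cre+ mice. Single markers differed in which mouse was highest. Mouse 137 was highest for Ms4a1 (5.77 against 4.76 to 5.13 elsewhere), mouse 131 for Pax5 (6.69 against 6.64 in mouse 137), and mouse 137 was lowest for Cd79b (9.96 against 10.04 to 10.34). Blk, a kinase gene, was the 1 B cell marker called in the limited test (limma adjusted p = 0.0463), at 7.41 and 7.39 in Cre+ and 7.90 and 7.91 in Cre- cells. Of the 6 markers 3 had means under 5.41, the 25th percentile of all probe sets. Mouse 137 also had the highest mean of the dendritic cell markers, 6.83 against 6.48 to 6.60, with H2-Aa at 7.73 against 6.51 to 6.67 and Cd74 at 8.28 against 7.02 to 7.45. Of the 8 dendritic cell markers 7 had lower means in Cre+ mice. The exception, H2-Ab1, was highest in Cre+ mouse 135 (9.07 against 8.73 in mouse 137). Batf3 was lowest in mouse 137 (6.64 against 6.72 to 6.88). Without mouse 137 the Cd53 difference was -1.06, with mouse 131 as the only Cre- mouse left. The part of B cells and dendritic cells in the Cd37 and Cd53 values was not tested.

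Tspan32 encodes a haematopoietic tetraspanin that restrains T cell proliferation. Unlike the other leukocyte genes its mean was higher in the Cre+ mice, at 7.29 and 7.00 against 6.71 and 6.87. The groups did not overlap, with 0.14 between the nearest values and 0.28 between the Cre+ mice. The difference was 0.35 (SE 0.14, 95% interval -4.0e-05 to 0.71, 1.28-fold) and did not pass in limma, with an adjusted p of 0.754 over all probe sets and 0.345 in the limited test. The Tspan32 difference was 0.21 without Cre+ mouse 129, and was 0.57 between the females and 0.14 between the males.

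Among the widely expressed tetraspanins Cd81 stood out. It measured 11.39 and 11.38 in Cre+ and 10.51 and 10.74 in Cre- cells. The Cre+ mice were 0.01 apart and both lay above both Cre- mice, with 0.64 between the nearest values. The difference was 0.76 (SE 0.08, 95% interval 0.54 to 0.98), or 1.70-fold higher. Of the 9152 genes with higher means in Cre+ mice it was in place 108. In limma Cd81 had an adjusted p of 0.142 in the main test and 0.00297 in the limited test, and over the alternatives this ranged from 0.00297 to 0.743. The difference was 0.88 between the females and 0.64 between the males.

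Cd9 encodes a tetraspanin that binds integrins and shares several partners with CD81. It measured 7.76 and 7.82 in Cre+ and 7.58 and 7.29 in Cre- cells. The groups did not overlap, with 0.18 between the nearest values and 0.29 between the Cre- mice. The difference was 0.35 (SE 0.13, 95% interval 0.02 to 0.69, 1.28-fold). It did not pass in limma, with an adjusted p of 0.731 over all probe sets and 0.316 in the limited test, but was called in the limited test without Cre- mouse 131 (difference 0.50, limma adjusted p = 0.0445). Without Cre- mouse 137 the Cd9 difference was 0.21 (limma adjusted p = 0.506 in the limited test). Myeloid cells also carry Cd9 and Cd81, and 8 of 9 macrophage and monocyte markers had higher means in Cre+ mice. The mean of these markers was 5.92 and 6.04 with Cre and 5.84 and 5.79 without it. Lyz2, the lysozyme gene, was the widest apart, at 7.56 and 7.59 against 6.79 and 6.29, and was called in the limited test (limma adjusted p = 0.0206). Csf1r, Cd14 and Adgre1 differed by 0.04, 0.08 and 0.01, C1qb by 0.26, and Mrc1, the 1 marker with a lower mean, by -0.08. Of the 9 markers 2, Adgre1 and Mrc1, had means under 5.41, the 25th percentile of all probe sets. The part of myeloid cells in the Cd9 and Cd81 values was not tested, and in sorted cells a change in the number of cells of a type and a change in RNA per cell cannot be told apart.

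The remaining widely expressed genes did not separate the groups. Cd63, which encodes a tetraspanin of late endosomes and secreted vesicles, measured 4.75 and 4.72 in Cre+ and 4.70 and 4.90 in Cre- cells. Its mean lay under 5.41, the 25th percentile of all probe sets, and it was the 1 gene of the 10 to do so. The Cd63 difference was -0.06, with a 95% interval from -0.30 to 0.18. Cd151, whose product binds laminin-binding integrins, measured 7.22 and 7.37 in Cre+ and 7.33 and 7.33 in Cre- cells. The Cd151 difference was -0.04 (95% interval -0.31 to 0.23). For both genes the Cre+ and Cre- values overlapped and the difference had opposite signs in females and males.

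Cd82, Tspan3 and Tspan13 had differences of at most 0.06 in size. Cd82, known as the metastasis suppressor Kai1, measured 11.36 and 11.13 in Cre+ and 11.27 and 11.33 in Cre- cells, a difference of -0.06 (95% interval -0.28 to 0.16). Tspan3 lay between 10.36 and 10.38 in all 4 mice, a range of 0.03. The Tspan3 difference was -0.0044 (95% interval -0.15 to 0.14) and it turned to 0.0055 when each array was centred on its median. Tspan13 measured 11.83 and 11.79 in Cre+ and 11.87 and 11.86 in Cre- cells. The Tspan13 groups did not overlap, with 0.03 between the nearest values, and the difference was -0.05 (95% interval -0.14 to 0.04). The intervals of Cd82, Tspan3 and Tspan13 leave out differences as large as those of Cd53 and Cd81.

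**Figure D2:**
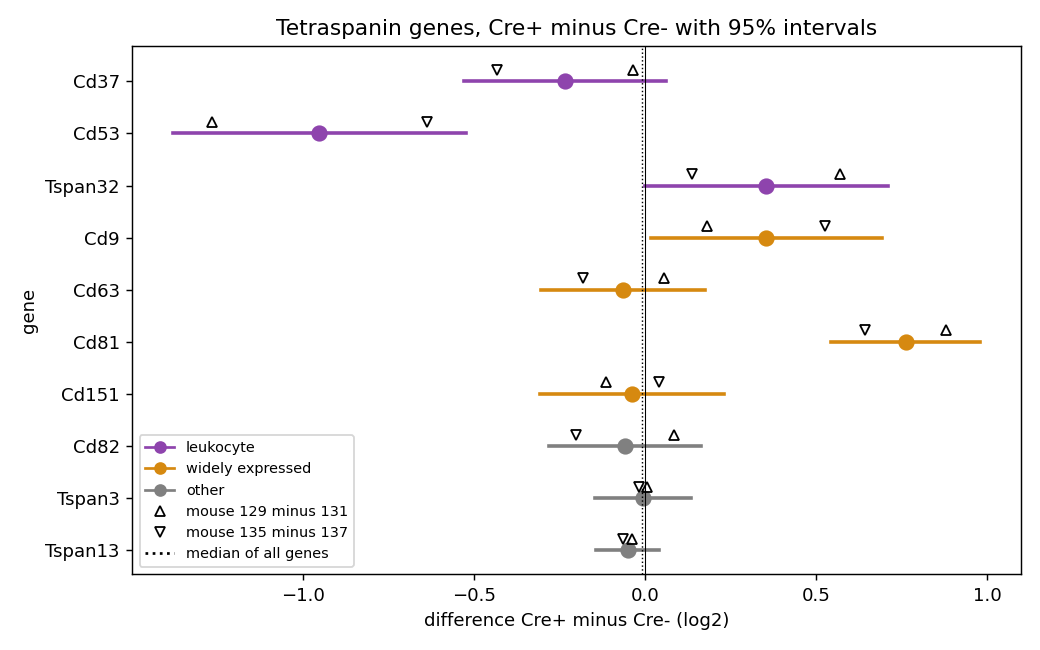
Log2 difference, Cre+ minus Cre-, of the 10 tetraspanin genes, with limma's 95% intervals as lines, coloured by subset. Open triangles give the difference within the females (129 minus 131, pointing up) and within the males (135 minus 137, pointing down), and the dotted line the median of all genes at -0.01. The intervals of Cd53, Cd81 and Cd9 do not reach 0, and that of Cd9 comes close to it, at 0.02.

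Set side by side, the subsets had medians of opposite sign, but the members of neither all had the same sign. The 3 leukocyte genes had a median difference of -0.23, with 2 lower and 1 higher. The 4 widely expressed genes had a median of 0.16, with 2 higher and 2 lower. As deviations from the Cre- mean, the median of the leukocyte genes was -0.17 and -0.30 with Cre and -0.08 and 0.08 without it. That of the widely expressed genes was 0.14 and 0.21 with Cre and -0.05 and 0.05 without it. The leukocyte median follows Cd37, the middle gene of the 3, and was -0.10 without mouse 137. The widely expressed median lies between Cd9 and Cd151 and was 0.35 when Cd63 was left out with other dim probe sets. The subsets hold few genes, so these medians are given without a test.

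The genes lie on several chromosomes, and 4 of the 10 (Cd37, Cd81, Cd151 and Tspan32) are on chromosome 7. Tspan32 and Cd81 are adjacent among protein-coding genes of the RefSeq table, and both had higher means in Cre+ mice. The 5 protein-coding genes on either side of Cd81 and of Cd53 were therefore read as well, a choice made after the values were seen. Of the 10 neighbours of Cd81, 0 had an unadjusted limma p under 0.05, against 6.86% of all genes. Their differences ran from -0.11 (Cdkn1c, a cell cycle inhibitor) to 0.35 (Tspan32 itself). Tssc4, the next gene beyond Cd81, differed by -0.0031, and Ascl2, beyond Tspan32, by 0.16. Of the 10 neighbours of Cd53, 0 had an unadjusted p under 0.05, against the same 6.86%, and 8 had lower means. Their differences ran from -0.33 (Dennd2d) to 0.04. In both stretches 0 neighbours were called in the limited test, against 1.22% of its probe sets. Among 10 genes, counts of 0 are near these shares. The Cre+ and Cre- values did not overlap for 3 neighbours of Cd81 and 6 of Cd53, against 36.4% of all genes. Those 6 (Chil6, Dennd2d, Dram2, Lrif1, Olfr266 and Cym) were all lower in Cre+ mice, against 20.3% of all genes.

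**Figure D3:**
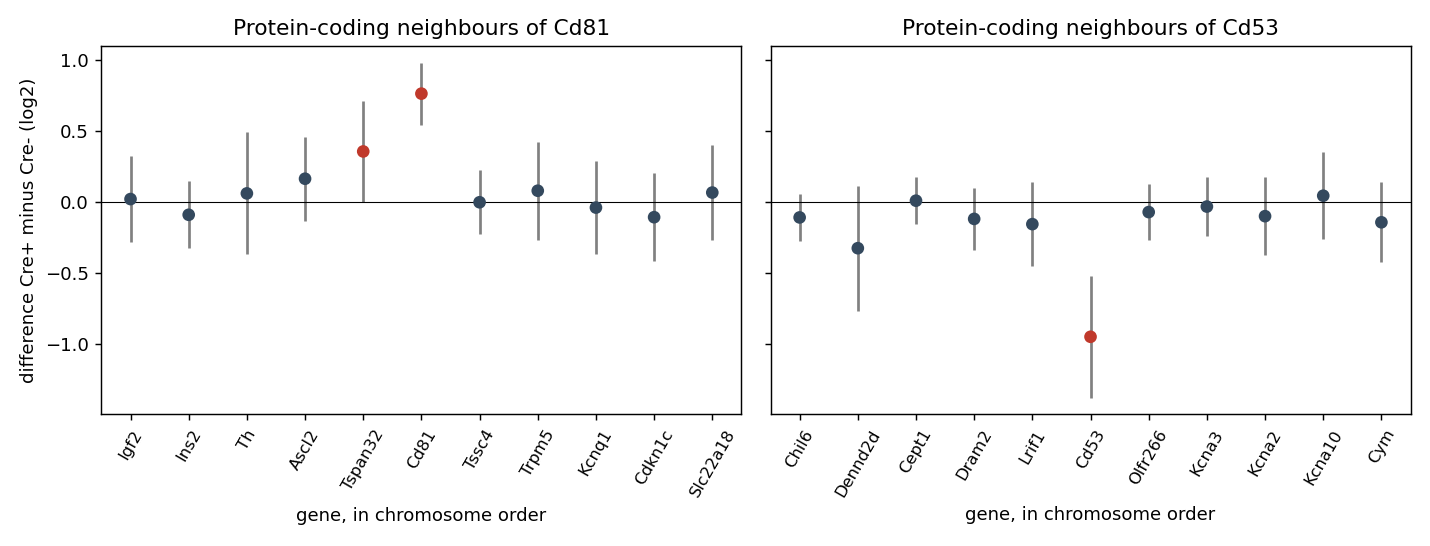
Log2 difference, Cre+ minus Cre-, with limma's 95% intervals, for Cd81 (left) and Cd53 (right) and the 5 protein-coding genes on either side, in the order along the chromosome and not to scale. Tetraspanin genes are in red. Cd81 at 0.76 and Cd53 at -0.95 lie apart from their neighbours, which run from -0.11 to 0.35 and from -0.33 to 0.04.

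Beyond the 10 genes, 21 other tetraspanin genes had been listed, of which 20 were measured and Tspan7 was not used here. Of these 20, 11 had higher and 9 lower means in Cre+ mice, with a median of 0.03. In the limited test 2 of the 20 were called, both higher, against 0.936% of its probe sets called higher and 0.285% lower, and 0 were called over all probe sets. At an unadjusted p under 0.05 in limma 5 of the 20 were higher and 1 was lower, against 4.12% and 2.74% of all genes. Upk1b, which encodes a uroplakin of the bladder lining, measured 7.98 and 7.83 in Cre+ and 6.38 and 6.70 in Cre- cells. The Upk1b difference of 1.37 (SE 0.15, 2.59-fold) was larger than that of any of the 10 genes, with a limma adjusted p of 0.132 over all probe sets and 0.00221 in the limited test. Tspan2, a tetraspanin gene best known in oligodendrocytes, was at 9.78 and 9.76 against 8.95 and 8.74. The Tspan2 difference was 0.92 (SE 0.10, 1.89-fold), with a limma adjusted p of 0.132 over all probe sets and 0.00308 in the limited test. Both Cre+ mice lay above both Cre- mice for either gene. Tspan31, next by p, differed by 0.24 (SE 0.05), and was not called (limma adjusted p = 0.0664 in the limited test). Over all 30 measured tetraspanin genes, 3 were called higher and 1 lower in the limited test (0.936% and 0.285% of its probe sets), and the median difference was -0.01, as for all genes.

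Tetraspanins act through the proteins they hold, and 36 of 37 listed partner genes were analysed here. Their median difference was 0.01, with 18 higher and 18 lower. In limma 0 were called over all probe sets, and at an unadjusted p under 0.05 there were 7 higher and 8 lower, against 4.12% and 2.74% of all genes. In the limited test 3 were called higher and 1 lower (0.936% and 0.285% of its probe sets), all of them integrin subunits, of which 8 were listed. Itga6, the alpha 6 subunit of laminin receptors, measured 10.59 and 10.62 in Cre+ and 9.62 and 9.62 in Cre- cells. The Itga6 difference was 0.99 (SE 0.06, 1.98-fold), with a limma adjusted p of 0.0664 over all probe sets and 0.000590 in the limited test. Itgb1, the beta 1 subunit that pairs with it, was at 10.97 and 10.90 against 10.55 and 10.50, a difference of 0.42 (SE 0.06). Itga4, the alpha 4 subunit that binds VCAM1 and fibronectin, was the 1 gene called lower, at 10.86 and 10.96 against 11.44 and 11.38, a difference of -0.50 (SE 0.05). Itga5, the fibronectin receptor subunit, differed by 0.50 (SE 0.09). Of the 36 partner genes, 11 were higher and 10 lower with no overlap between the groups, against 16.1% and 20.3% of all genes. In the limited test the calls of Itgb1 and Itga5 were lost without Cre+ mouse 129 (limma adjusted p = 0.0713 and 0.319), and that of Itga5 also without mouse 131 (0.0533) and without mouse 135 (0.144). Without limma's intensity trend the calls of Itga4, Itgb1 and Itga5 were lost (adjusted p = 0.0609, 0.0899 and 0.0584), while Itga6 kept its call (0.00805). The other partner groups held 0 called genes.

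**Figure D4:**
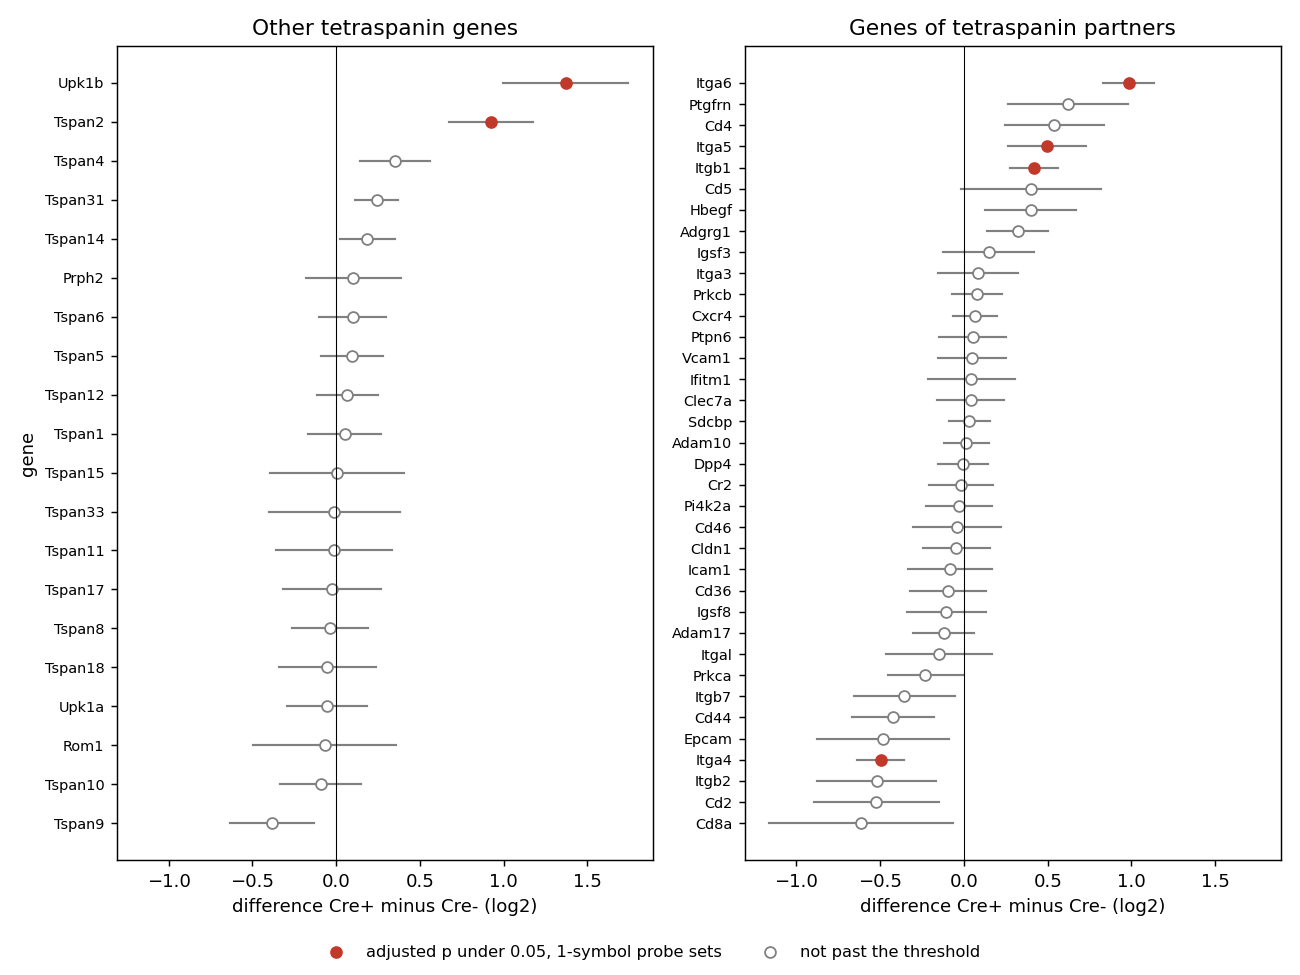
Log2 difference, Cre+ minus Cre-, with limma's 95% intervals for 20 other tetraspanin genes (left) and 36 genes of tetraspanin partners (right), ordered by size. Filled red points mark genes with an adjusted p under 0.05 in the limited test. Upk1b at 1.37 and Itga6 at 0.99 lie farthest to the right.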

How the data were processed

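Total RNA of sorted DN4 cells was labelled in a 2-cycle assay and hybridised to Affymetrix mouse gene arrays, per the labels' protocols. The deposited values are log2 expression values. RMA was the authors' method, per the submitters' processing notes, and its version, the filters and the build were not given in the sources used here. The values were used as deposited, with 0 sample columns unused. Groups follow the titles, since the treatment text names the Cre+ genotype on all 4 arrays, while the design text separates the groups.

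Genes were named through the platform annotation, using only probe sets with 1 symbol (21789 of 35556) and, per gene, the one with the highest mean. A RefSeq table held 21698 of these probe sets' genes and changed 0 symbols. Cre+ and Cre- were compared with limma 3.58.1 in R 4.3.3 (lmFit, eBayes with intensity trend) over all probe sets, with Benjamini-Hochberg adjustment and a threshold of 0.05, at 2 residual and 2.99 prior degrees of freedom. The fit was run on simulated data with added shifts, which checks the code and not how the p-values behave in these 4 arrays. Differences are Cre+ minus Cre-, with limma's moderated SE from the fit over all probe sets.

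The members and gene lists were chosen with earlier results of these data known. Named genes are all 10 members and, of other tetraspanins and of partners, the 3 with the smallest p and any called. Genes named beyond this rule were picked with their values in view, except markers. Alternatives were scaling, a filter on dim probe sets, variance models, array weights, sex as a block, the limited test and leaving out each mouse.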

Additional observations from a re-analysis of the deposited data

How the results depend on the processing

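The count of called probe sets was 0 in the main test. It was 266 in the limited test, 10 with each array centred on its median and 25 without probe sets under the 25th percentile, while the other alternatives, leaving out any 1 mouse included, gave 0. The count of tetraspanin members called was 2 in the limited test and 0 in every other alternative run over all probe sets. Within the limited test, settings added after seeing the data gave 130 probe sets and 1 member without the intensity trend (Cd81 called, Cd53 at a limma adjusted p of 0.0846) and 565 with sex as a block. Leaving out each mouse gave 138 to 480 probe sets and 2 to 3 members. The lowest count was without mouse 129 and the highest without mouse 131. All these settings reuse the same 4 arrays, and those without a mouse leave a group of 1 mouse, which has no spread of its own. In the settings that kept all 4 mice Cd81 was called each time. Cd53 was called in each of them but the 1 without the intensity trend. The median of the leukocyte genes ranged from -0.37 (without mouse 131) to -0.10 (without mouse 137), and that of the widely expressed genes from 0.12 to 0.23 when a mouse was left out. The latter was 0.35 without dim probe sets, where Cd63 was not tested. Of the 10 genes, 4 changed sign. Tspan3 was 0.0055 after centring. When a mouse was left out, Tspan3 ranged from -0.019 to 0.010 (without mouse 137), Cd151 from -0.11 to 0.039 (without mouse 129), Cd82 from -0.17 to 0.059 (without mouse 135) and Cd63 from -0.17 to 0.039 (without mouse 137). Each of the 10 genes had 1 such probe set, so averaging probe sets changed no value. The labels give no number shared between the groups, so the block by sex, read from the transcripts, was the 1 paired fit. It called 0 probe sets over all probe sets, and 2 members among those of the limited test.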

Other observations

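Some partner genes outside the naming rule were chosen after their values were seen. Ptgfrn encodes an immunoglobulin-fold protein that binds CD9 and CD81 directly. It measured 6.95 and 6.63 in Cre+ and 6.19 and 6.15 in Cre- cells, a difference of 0.62 (SE 0.14) that was not called in the limited test (limma adjusted p = 0.0596). Igsf8, which encodes the related partner EWI-2, differed by -0.10 (SE 0.09). Hbegf, a growth factor precursor that binds CD9, differed by 0.40 (SE 0.11), and the hyaluronan receptor gene Cd44 by -0.42 (SE 0.10). Neither was called in the limited test.

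The 6 tetraspanins of the TspanC8 group (Tspan5, Tspan10, Tspan14, Tspan15, Tspan17 and Tspan33) bring the protease ADAM10 to the cell surface, where it cleaves Notch. Their differences ran from -0.09 to 0.19, with 3 higher and 3 lower. In the limited test 0 were called, against 1.22% of its probe sets. In limma 1 (Tspan14) had an unadjusted p under 0.05, against 6.86% of all genes. Among 6 genes such counts are near these shares. Adam10 itself measured 10.72 and 10.68 in Cre+ and 10.71 and 10.66 in Cre- cells, a difference of 0.02 (SE 0.05).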
